A study of Mus musculus with 9 samples.

Results

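A set of 36 mouse genes was followed across sorted cells of the embryonic knee. They were chosen by gene symbol as genes of Schwann cells and neurons, neurotrophins and their receptors, receptors of the GDNF family and the receptor gene Mchr1. Each symbol matched 1 row of the deposited table, so the set holds 36 of its 54532 genes. E14.5 embryos carried a tdTomato reporter in 1 Creb5 allele (Creb5 3XHA-P2A-tdTomato/+) and an EGFP reporter in 1 Sox9 allele (Sox9 iresEGFP/+). All sorted cells came from such embryos. Knee cells with both colours (the GFP&RFP population), with tdTomato but no EGFP (the RFP population) and with EGFP but no tdTomato (the GFP population) were collected by flow cytometry from litters 1, 2 and 5, and each of the 9 bulk libraries holds polyadenylated RNA of 1 population from 1 litter. The deposited table leaves out the litters numbered between 2 and 5. RFP cells and RFP libraries always mean those without EGFP, and GFP ones those without tdTomato.

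The cell bodies of limb sensory, motor and sympathetic neurons lie outside the limb, in ganglia and the spinal cord, so that a knee holds their axons together with Schwann cells, the glia that the neural crest supplies to peripheral nerves. Neurotrophins are ligands made by target tissues. They act on axons through Trk receptors and the shared receptor encoded by Ngfr, while ligands of the GDNF family act through GFR-alpha co-receptors and the tyrosine kinase RET. Many of these genes are also used by cells that are neither neurons nor glia, among them mesenchyme, cartilage and muscle.

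The libraries held between 25199258 and 47079305 recovered reads. Values are deposited normalized counts, given for litters 1, 2 and 5 in that order or as mean ± SD over n = 3 libraries. The genes that carry the reporters followed the sort. Creb5 averaged 3044 ± 333 in GFP&RFP cells, 2959.8 ± 832 in RFP cells and 203 ± 68.1 in GFP cells, and Sox9 averaged 23473 ± 6622, 1618 ± 457 and 28910.0 ± 8025 in the same 3 populations. Chondrocyte markers (9 genes) summed to 287877 to 786391 normalized counts per library in GFP&RFP cells, 6560.1 to 12304 in RFP cells and 1362849 to 1868902 in GFP cells. In bulk RNA, fewer cells of a type and less RNA per cell cannot be told apart.

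The set was mostly higher in RFP than in GFP cells. Of the 33 genes with a mean of at least 10 normalized counts over the 9 libraries, which were tested, 24 had their highest mean in RFP cells, 5 in GFP&RFP cells and 4 in GFP cells. The other 3, Elavl3, Th and Gad1, lay under this limit. In RFP against GFP cells 20 tested genes of the set were higher and 2 lower at an adjusted p under 0.05, where 20.3% of all 17764 tested genes were called (11.8% higher and 8.48% lower). GFP&RFP against GFP cells gave 13 higher and 4 lower, and 8.29% of all tested genes were called (5.27% higher and 3.02% lower). GFP&RFP against RFP cells gave 1 higher and 4 lower, and 2.85% of all tested genes were called (1.8% higher and 1.05% lower). The median log2 fold change of the tested genes of the set was 2.15, 0.77 and -1.16 in these 3 comparisons, beside 0.05, 0.04 and -0.01 over all tested genes. The set was chosen with earlier results of these data known, so these counts and medians are no test of the set against all genes. Fold changes are log2 values ± SE with n = 3 libraries in each population, and adjusted p values come from limma with Benjamini-Hochberg adjustment over all tested genes. The comparisons share libraries and are not independent of each other. All 44 calls had 1 sign in the 3 litters, which follows from the lack of overlap between the populations compared in each of these 44 calls. In GFP&RFP against GFP cells the 17 calls fell to 11 without the GFP&RFP library of litter 1 and to 8 without that of litter 2. In GFP&RFP against RFP cells the 5 calls fell to 3 without the RFP library of litter 2, and to 2 without that of litter 1 or 5 or the GFP&RFP library of litter 5. The 3 libraries of 1 population lay wholly above or below those of the other for 14 higher and 4 lower of the 33 genes in GFP&RFP against GFP cells (14.3% and 13.8% of all tested genes), for 22 and 3 in RFP against GFP cells (20.9% and 18.5%), and for 2 and 20 in GFP&RFP against RFP cells (11.2% and 12.6%).

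**Figure D1:**
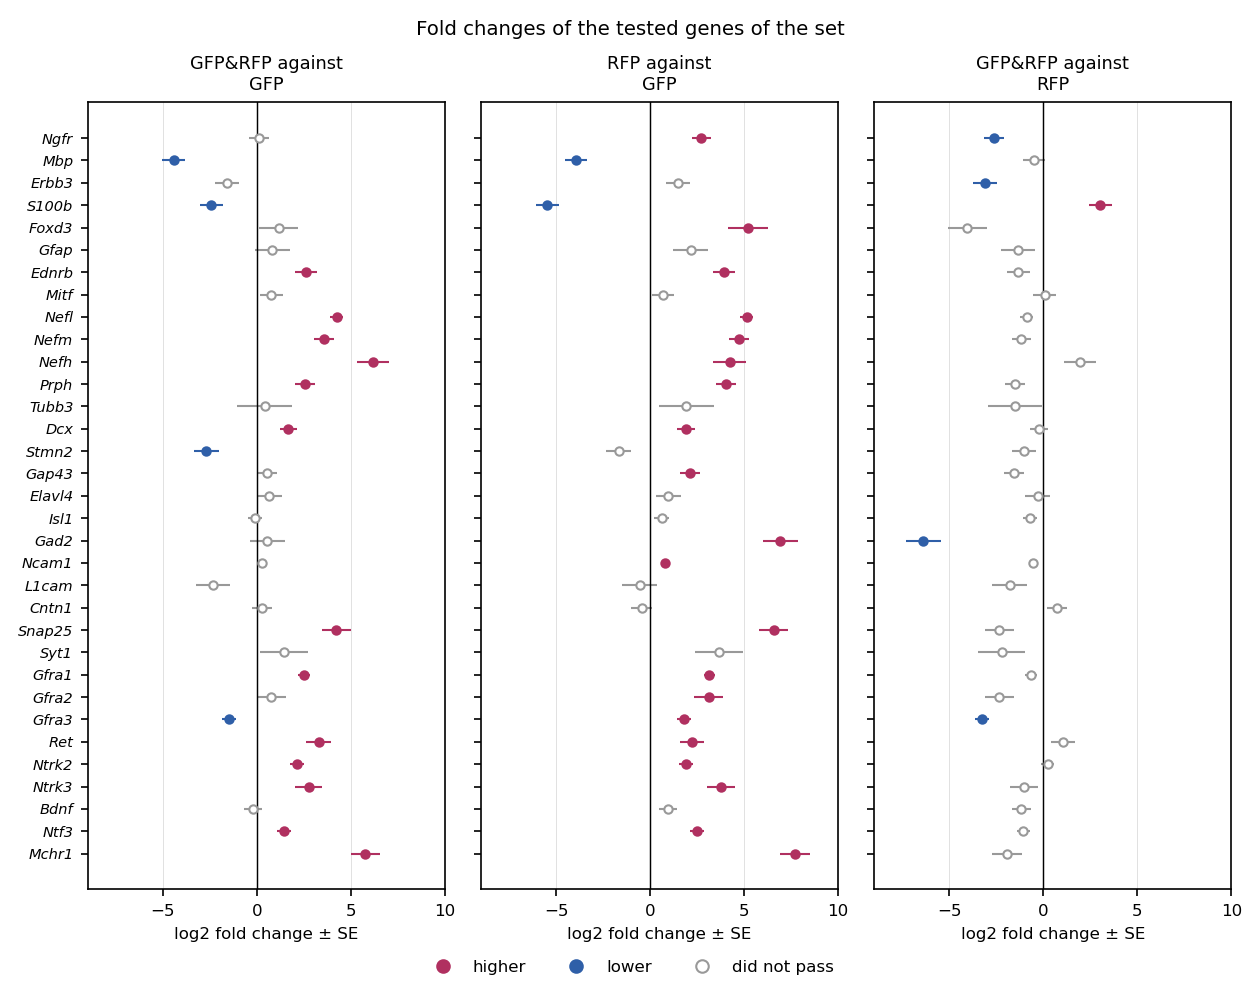
Log2 fold change with its standard error (horizontal axes) of the 33 tested genes, in rows by role, for GFP&RFP against GFP, RFP against GFP and GFP&RFP against RFP cells. Filled red points were higher and filled blue points lower at an adjusted p under 0.05, with 20 red points for RFP against GFP cells and 13 for GFP&RFP against GFP cells, and open grey points did not pass.

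The neurofilament genes were higher in both populations sorted as tdTomato-positive than in GFP cells, and Nefl had the smallest adjusted p of the set in both comparisons. Of the 8 genes of the neuronal cytoskeleton and axon growth, 5 were higher and 1 lower in GFP&RFP and 6 higher in RFP than in GFP cells. Nefl, Nefm and Nefh encode the light, medium and heavy chains of the neurofilament, the intermediate filament of axons. Nefl (ENSMUSG00000022055, chr14:68083863-68089095, plus strand, GRCm38) had 1169, 3191 and 1708 normalized counts in GFP&RFP libraries, 3149.8, 3406 and 3794 in RFP libraries and 102, 103 and 89.5 in GFP libraries. Every library of tdTomato-positive cells was over 10-fold above every GFP library. Its log2 fold change was 4.23 ± 0.33 for GFP&RFP against GFP cells (adjusted p = 0.000104) and 5.12 ± 0.33 for RFP against GFP cells (adjusted p = 5.89e-06). Nefm had 273, 949 and 479 in GFP&RFP libraries, 954, 1088 and 1347 in RFP libraries and 19, 68.6 and 54.3 in GFP libraries (3.56 ± 0.53, adjusted p = 0.00282 for GFP&RFP and 4.72 ± 0.53, adjusted p = 0.000152 for RFP cells, both against GFP cells). In GFP&RFP against RFP cells neither passed (adjusted p = 0.222 for Nefl and 0.372 for Nefm), although without the GFP&RFP library of litter 2 Nefl was called lower (-1.28, adjusted p = 0.0433).

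Nefl and Nefm are neighbours on opposite strands, and their annotated exons share 1108 bases, so without a stated strand setting reads from the shared stretch cannot be told apart. The ratio of Nefl to Nefm lay between 1.5 and 5.35 in the 9 libraries. Nefh, on chromosome 11, has no such neighbour. It had 85.5, 179 and 198 normalized counts in GFP&RFP libraries and 28.9, 35.1 and 49 in RFP libraries, against 0, 7.35 and 0 in GFP libraries. Nefh thus had its highest mean in GFP&RFP cells, with no overlap with the RFP libraries, where the tested difference did not pass (adjusted p = 0.352). Against GFP cells Nefh was higher in GFP&RFP (6.17 ± 0.86, adjusted p = 0.00215) and in RFP cells (4.22 ± 0.86, adjusted p = 0.00569). The size of such a change depends on the pseudocount where 1 group has few reads (6 reads in GFP cells), and with pseudocounts of 0.5 and 5 the Nefh values were 6.86 and 4.47 for GFP&RFP and 4.9 and 2.63 for RFP cells.

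Per kilobase of annotated exon, in RFP cells, Nefl averaged 1021 normalized counts, Nefm 195 and Nefh 9.44. Prph, which encodes peripherin, an intermediate filament of peripheral neurons, averaged 103 on the same scale. Prph had 39.4, 103 and 86 normalized counts in GFP&RFP libraries, 257, 182 and 175 in RFP libraries and 6.61, 14.7 and 14.9 in GFP libraries, with no overlap between any of the populations. It was higher in RFP than in GFP cells (4.03 ± 0.53, adjusted p = 0.000453). Its rise in GFP&RFP against GFP cells (2.53 ± 0.53, adjusted p = 0.016) was lost without the GFP&RFP library of litter 2 or 5 (adjusted p 0.0551 to 0.0764) and in a fit of these 2 populations alone.

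**Figure D2:**
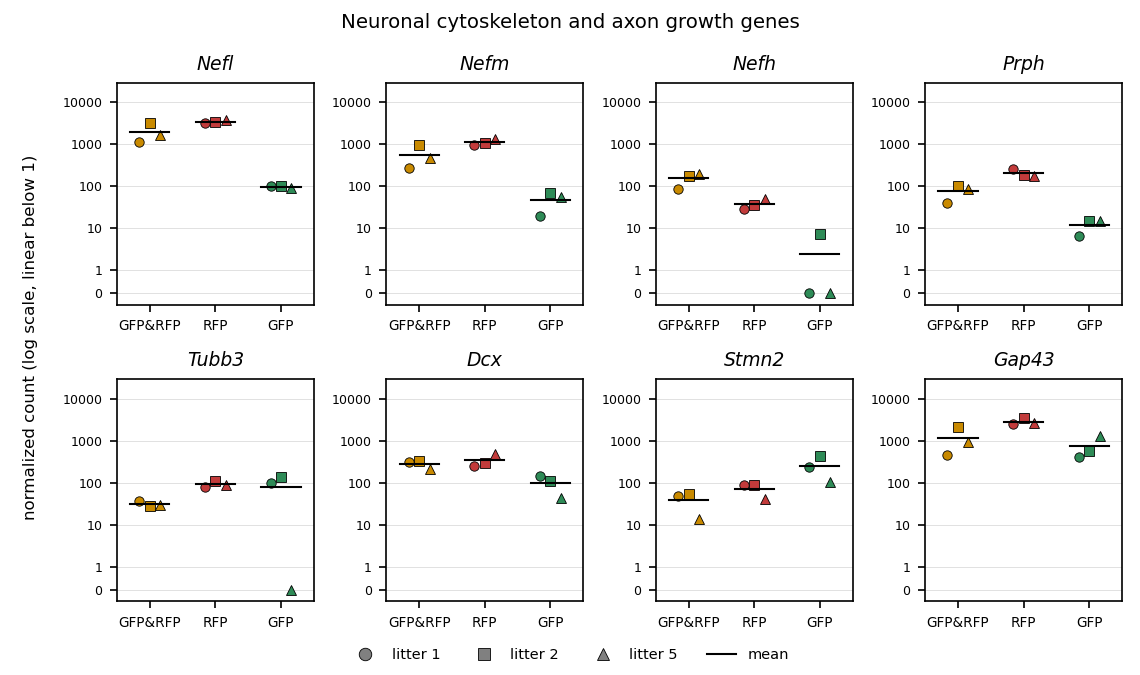
Normalized counts (vertical axis, log scale that is linear below 1) of 8 neuronal cytoskeleton and axon growth genes in GFP&RFP, RFP and GFP libraries, with 1 marker shape per litter and a line at the mean of 3 libraries. The 4 intermediate filament genes of the upper row are lowest in GFP libraries, where Nefl lies between 89.5 and 103, while Stmn2 is highest there.

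Other genes of growing axons differed in other ways. Dcx, which encodes the microtubule protein doublecortin, had 311, 334 and 214 normalized counts in GFP&RFP, 255, 297 and 482 in RFP and 143, 108 and 43.4 in GFP libraries. Dcx was higher in RFP than in GFP cells (1.91 ± 0.46, adjusted p = 0.014), a call lost without the RFP library of litter 5 (adjusted p = 0.0697). In GFP&RFP cells its rise of 1.67 ± 0.46 passed at an adjusted p of 0.049 and was lost in 15 of 21 alternatives, among them with litter as a block (adjusted p = 0.0612) and without any 1 library but the GFP library of litter 1 (adjusted p 0.061 to 0.16). Gap43, a gene of the growth cone, was higher in RFP than in GFP cells, at 2486, 3440.3 and 2741 against 403, 563 and 1290.3 (2.11 ± 0.53, adjusted p = 0.0161). That call was lost without the RFP library of litter 2 or 5 (adjusted p 0.0501 to 0.0595). GFP&RFP libraries, at 455, 2114 and 941, overlapped GFP libraries and lay below all RFP libraries, a difference that passed without the GFP&RFP library of litter 2 (-2.13, adjusted p = 0.0499).

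Stmn2, which encodes a microtubule regulator of neurons, went the opposite way. It had 49, 53 and 13.5 normalized counts in GFP&RFP libraries, 90.6, 86.1 and 40.6 in RFP libraries and 232, 427 and 106 in GFP libraries, so that every GFP library was above all others. It was lower in GFP&RFP than in GFP cells (-2.7 ± 0.66, adjusted p = 0.0306), but not without any 1 GFP&RFP library or the GFP library of litter 1 or 2 (adjusted p 0.0534 to 0.0896). Stmn2 also lost this call with no filter on the mean, with no trend and in a fit of GFP&RFP and GFP cells alone. In RFP against GFP cells it did not pass (adjusted p = 0.0997), and it did with litter as a block (-1.67, adjusted p = 0.0227), in DESeq2 and without the GFP library of litter 5 (-2.19, adjusted p = 0.0446). Tubb3, the beta-tubulin used as a neuron marker, had 37.5, 27.3 and 29.9 in GFP&RFP, 77.7, 111 and 88.2 in RFP and 101, 139.6 and 0 in GFP libraries, with 0 listed in the GFP library of litter 5. It passed in none of the 3 comparisons (adjusted p 0.373 to 0.887). Its value for GFP&RFP against GFP cells was 0.41 ± 1.45, and without that library it was called lower there (-1.89, adjusted p = 0.0261).

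Of 6 genes of neuronal RNA binding, identity and transmitter synthesis, 3 had too few reads to be tested, and Gad2 was called. Elavl3, a neuronal RNA-binding protein gene, had 2.88, 2.34 and 12.7 normalized counts in GFP&RFP, 6.09, 1.13 and 2.8 in RFP and 0, 0 and 9.5 in GFP libraries. Th, which encodes the enzyme that sets the rate of catecholamine synthesis, had 0, 0 and 4.49 in GFP&RFP, 12.9, 0 and 0 in RFP and 12.4, 3.67 and 0 in GFP libraries. Gad1, which encodes an enzyme that makes the transmitter GABA, had 5.76, 0 and 0 in GFP&RFP, 3.81, 20.4 and 7 in RFP and 6.61, 0 and 0 in GFP libraries. Each of these 3 genes was listed at 0 in some library. Elavl4, a relative of Elavl3, had 152, 142 and 67.3 in GFP&RFP, 109, 112 and 224 in RFP and 103, 153 and 23.1 in GFP libraries. Isl1, a transcription factor of sensory and motor neurons that is also used in limb mesenchyme, had 492, 357 and 378 in GFP&RFP, 694, 601 and 672 in RFP and 665, 224 and 536 in GFP libraries. Both other populations overlapped GFP cells for both genes, and neither passed in any comparison (adjusted p 0.28 to 0.959).

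Gad2 (ENSMUSG00000026787, chr2:22622205-22693874, plus strand, GRCm38), which encodes the other enzyme of GABA synthesis, was read almost entirely in RFP cells. It had 0, 0.78 and 0.748 normalized counts in GFP&RFP libraries and 58.7, 212 and 141 in RFP libraries, with no read in the 3 GFP libraries. RFP cells were at least 101-fold higher than GFP cells, against a floor of 3 reads over the GFP group (adjusted p = 0.000504). GFP&RFP cells held 2 reads and RFP cells 365, a ratio of 0.00436 with a 95% exact counting interval of 0.000526 to 0.0158, and Gad2 was called lower in GFP&RFP than in RFP cells (adjusted p = 0.00417). The interval and the floor cover counting error only. Both calls held in all 20 alternatives in which Gad2 could be tested.

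Of the 5 genes of adhesion and release, 2 were higher in RFP and 1 in GFP&RFP than in GFP cells. Ncam1, which encodes an adhesion molecule of neurons and muscle, had 3687, 4576 and 3801 normalized counts in GFP&RFP libraries, 5600.3, 5543 and 6153 in RFP libraries and 3248, 3492 and 3145 in GFP libraries. The 3 populations did not overlap. Ncam1 was higher in RFP than in GFP cells (0.81 ± 0.18, adjusted p = 0.00881), a call that held in all 21 alternatives, while the difference between GFP&RFP and GFP cells did not pass (0.28 ± 0.18, adjusted p = 0.352). It did not pass either between GFP&RFP and RFP cells (adjusted p = 0.179), but did so without the GFP library of litter 5 (-0.52, adjusted p = 0.0452) and in DESeq2 (-0.52, adjusted p = 0.0473). Ncam1 shares 417 exon bases with the antisense gene Gm11149. L1cam, an adhesion molecule gene of axons and Schwann cells, had 8.65, 32 and 215 in GFP&RFP, 189, 178 and 81.2 in RFP and 259, 317 and 107 in GFP libraries. Cntn1, which encodes the axonal adhesion protein contactin, had 109.5, 78 and 195 in GFP&RFP, 55.6, 64.5 and 104 in RFP and 117, 168 and 50.2 in GFP libraries. Both overlapped between all populations and passed in none of the comparisons, except that L1cam was called lower in GFP&RFP than in GFP cells without the GFP&RFP library of litter 5 (-3.54, adjusted p = 0.0183).

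Both genes of transmitter release had their lowest mean in GFP cells. Snap25, which encodes a protein of the vesicle fusion machinery, had 38.4, 123 and 28.4 normalized counts in GFP&RFP libraries, 292, 258 and 253 in RFP libraries and 0, 2.45 and 5.43 in GFP libraries, with no overlap between any of the populations. It was higher in RFP (6.58 ± 0.77, adjusted p = 0.00021) and in GFP&RFP cells (4.22 ± 0.77, adjusted p = 0.00824) than in GFP cells. With pseudocounts of 0.5 and 5 these values were 7.02 and 5.22 for RFP and 4.65 and 2.97 for GFP&RFP cells, and the GFP&RFP call was lost in a fit of these 2 populations alone. Between GFP&RFP and RFP cells the difference did not pass (-2.36 ± 0.77, adjusted p = 0.159), but did so with a pseudocount of 5, in a fit of these 2 populations alone and in DESeq2. Syt1, the calcium sensor of vesicle release, had 17.3, 2.34 and 26.9 in GFP&RFP, 64, 41.9 and 61.6 in RFP and 0, 36.7 and 1.36 in GFP libraries. Its RFP libraries were above all GFP libraries, and the difference did not pass (3.65 ± 1.27, adjusted p = 0.0655), but it did without the GFP library of litter 2 (5.19, adjusted p = 0.00677).

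**Figure D3:**
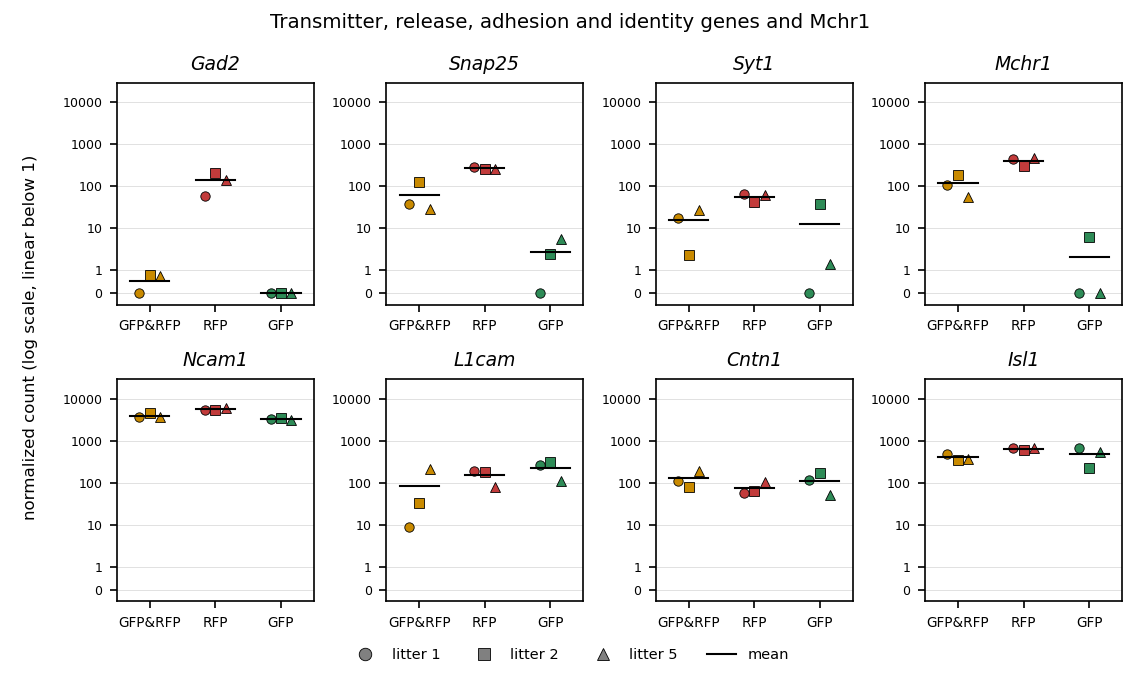
Normalized counts (vertical axis, log scale that is linear below 1) of 8 genes of transmitter synthesis and release, adhesion, neuronal identity and of Mchr1 in GFP&RFP, RFP and GFP libraries, with 1 marker shape per litter and a line at the mean of 3 libraries. Gad2 stands between 58.7 and 212 in RFP libraries and at 0 in GFP libraries, and Isl1 overlaps between GFP&RFP and GFP libraries.

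Mchr1 (ENSMUSG00000050164, chr15:81235499-81238964, plus strand, GRCm38) encodes a receptor of melanin-concentrating hormone, a hypothalamic peptide that acts on feeding. It had 108, 189 and 54.6 normalized counts in GFP&RFP libraries and 452, 303 and 465 in RFP libraries, while GFP libraries had 0, 6.12 and 0, or 5 reads in all. The populations did not overlap, and Mchr1 was higher than in GFP cells both in GFP&RFP (5.76 ± 0.79, adjusted p = 0.00204) and in RFP cells (7.7 ± 0.79, adjusted p = 9.13e-05). These values were 6.46 and 4.06 for GFP&RFP and 8.4 and 5.95 for RFP cells with pseudocounts of 0.5 and 5, and both calls held in all 21 alternatives. In GFP&RFP against RFP cells Mchr1 did not pass (-1.94 ± 0.79, adjusted p = 0.29), and it was called lower there by DESeq2 and in a fit of these 2 populations alone.

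Genes of Schwann cells, glia and neural crest differed in both directions, with 3 of 8 higher and 2 lower in RFP than in GFP cells and 1 higher and 2 lower in GFP&RFP than in GFP cells. Foxd3, a transcription factor of neural crest and early Schwann cell precursors (ENSMUSG00000067261, chr4:99656299-99658622, plus strand, GRCm38), had 0, 7.02 and 17.9 normalized counts in GFP&RFP, 120.4, 92.9 and 58.8 in RFP and 1.65, 1.22 and 1.36 in GFP libraries. The rise in RFP against GFP cells (5.19 ± 1.05, adjusted p = 0.00538) held in all 20 alternatives that tested it, with values of 5.52 and 3.85 at pseudocounts of 0.5 and 5. Between GFP&RFP and RFP cells the groups did not overlap and the difference did not pass (-4.04 ± 1.05, adjusted p = 0.07), but it did with a pseudocount of 5, with quantile scaling and in DESeq2.

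Creb5 belongs to the factors that bind the cAMP response element, so the windows before the start sites of the set were read for that motif. Of the 36 genes 23 have an entry, with 40 start sites, in the RefSeq promoter table (GRCm38.p6). The windows are the 250 bases before each start site, and both strands were searched. The motif TGACGTCA was present in 3 of the 40 windows, at Foxd3, Mitf and Th, and in 1.55% of all 32851 windows. The shorter motif TGACG, which TGACGTCA contains on both strands, was present in 11 of the 40 windows, of 9 genes, and in 17.8% of all windows. Windows of the same gene can overlap and share a match, as at Elavl4, so windows with a match are not all separate sites. The windows shown belong to the genes with the highest ratios of RFP to GFP level among those whose window lies outside the annotated gene. Matches to either motif on either strand are in capitals. Foxd3 (chr4:99656049-99656298, plus strand) holds 1 full match, and Mchr1 (chr15:81235249-81235498, plus strand) and Prph (chr15:99054924-99055173, plus strand) hold neither motif.
Foxd3: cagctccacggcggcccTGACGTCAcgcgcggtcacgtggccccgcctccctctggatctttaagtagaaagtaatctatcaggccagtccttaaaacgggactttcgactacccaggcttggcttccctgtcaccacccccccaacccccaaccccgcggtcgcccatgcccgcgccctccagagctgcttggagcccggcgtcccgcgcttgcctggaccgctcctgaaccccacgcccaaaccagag
Mchr1: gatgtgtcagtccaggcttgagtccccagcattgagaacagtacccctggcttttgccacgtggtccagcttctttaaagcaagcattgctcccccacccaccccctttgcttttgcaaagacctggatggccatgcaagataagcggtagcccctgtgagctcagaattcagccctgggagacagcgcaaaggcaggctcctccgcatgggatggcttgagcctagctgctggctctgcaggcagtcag
Prph: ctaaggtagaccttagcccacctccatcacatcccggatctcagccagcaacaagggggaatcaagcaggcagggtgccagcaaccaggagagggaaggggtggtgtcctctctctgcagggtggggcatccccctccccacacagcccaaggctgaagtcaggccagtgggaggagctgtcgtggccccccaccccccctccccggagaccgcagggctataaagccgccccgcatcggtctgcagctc
A match is a string of letters and not a bound site. The 13 genes with no entry are Erbb3, Gap43, Gfra2, Gfra3, Mbp, Ncam1, Nefh, Nefl, Nefm, Ntrk3, Ret, Snap25 and Stmn2.

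Ngfr, which encodes the low-affinity neurotrophin receptor and marks Schwann cells and their precursors, was highest in RFP cells. It had 49.96, 143 and 121 normalized counts in GFP&RFP libraries, 535, 616 and 638 in RFP libraries and 86, 174 and 47.5 in GFP libraries. Ngfr was higher in RFP than in GFP cells (2.72 ± 0.52, adjusted p = 0.00389) and lower in GFP&RFP than in RFP cells (-2.63 ± 0.52, adjusted p = 0.0218). The second of these calls was lost with no trend and without the GFP&RFP library of litter 1 or 5 or any 1 RFP library (adjusted p 0.0586 to 0.0945 without 1 library). Erbb3, the neuregulin receptor that Schwann cells need, had 149, 28.1 and 86 in GFP&RFP, 392, 558 and 1058 in RFP and 433, 211 and 117 in GFP libraries. It was lower in GFP&RFP than in RFP cells (-3.09 ± 0.65, adjusted p = 0.0296), but not without the GFP&RFP library of litter 2 or 5 or any 1 RFP library (adjusted p 0.0526 to 0.139), and RFP and GFP libraries overlapped. The call of Erbb3 was also lost with no trend and in edgeR.

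Ednrb, the endothelin receptor gene of neural crest derivatives, was higher in both tdTomato-positive populations. It had 207, 448 and 1546 normalized counts in GFP&RFP libraries and 2069.6, 986 and 1103 in RFP libraries, against 77.7, 77.1 and 106 in GFP libraries. The rise against GFP cells was 3.92 ± 0.6 in RFP cells (adjusted p = 0.00106) and 2.59 ± 0.6 in GFP&RFP cells (adjusted p = 0.0235). The call in GFP&RFP cells was lost without the GFP&RFP library of litter 2 or the GFP library of litter 1 or 2 (adjusted p 0.05 to 0.0718). It was also lost with no trend and in a fit of GFP&RFP and GFP cells alone. Mitf, the transcription factor of melanocytes, had 70.1, 49.9 and 137 in GFP&RFP, 83.8, 65.7 and 75.6 in RFP and 20.7, 46.5 and 100.4 in GFP libraries. Gfap, an intermediate filament gene of glia, had 11.5, 15.6 and 19.4 in GFP&RFP, 32.8, 48.7 and 40.6 in RFP and 0.827, 20.8 and 19 in GFP libraries. Neither passed in any comparison (adjusted p 0.125 to 0.994).

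Mbp and S100b, which serve as markers of myelinating Schwann cells and of Schwann cells at large, were highest in GFP cells. Mbp had 27.9, 81.9 and 234 normalized counts in GFP&RFP libraries, 119.6, 99.7 and 126 in RFP libraries and 1395, 2069 and 1989 in GFP libraries. It was lower in GFP&RFP (-4.44 ± 0.6, adjusted p = 0.00189) and in RFP cells (-3.96 ± 0.6, adjusted p = 0.000996) than in GFP cells, and both calls held in all 21 alternatives. S100b, which cartilage also expresses, had 360.3, 654 and 1231 in GFP&RFP libraries, 40.4, 121 and 104 in RFP libraries and 1738, 3366 and 8036 in GFP libraries. The 3 populations did not overlap, with RFP cells lowest. S100b was lower in RFP than in GFP cells (-5.48 ± 0.61, adjusted p = 0.000146), lower in GFP&RFP than in GFP cells (-2.44 ± 0.61, adjusted p = 0.0326) and higher in GFP&RFP than in RFP cells (3.04 ± 0.61, adjusted p = 0.0236). The call against GFP cells in GFP&RFP cells was lost without the GFP&RFP library of litter 1 or 2 or the GFP library of litter 2 or 5 (adjusted p 0.0596 to 0.118), and the call against RFP cells without the GFP&RFP library of litter 2 or 5 or the RFP library of litter 1 or 5 (adjusted p 0.0601 to 0.106). Both were also lost with no trend, and the call against GFP cells in a fit of GFP&RFP and GFP cells alone. The chondrocyte markers, among them Sox9, which carries the EGFP reporter used for the sort, had the same order of populations as S100b. They were lower in RFP than in GFP cells for 9 of 9 genes. In GFP&RFP cells 6 of 9 were lower than in GFP cells and 9 of 9 higher than in RFP cells. Their part in the values of S100b and Mbp was not tested.

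**Figure D4:**
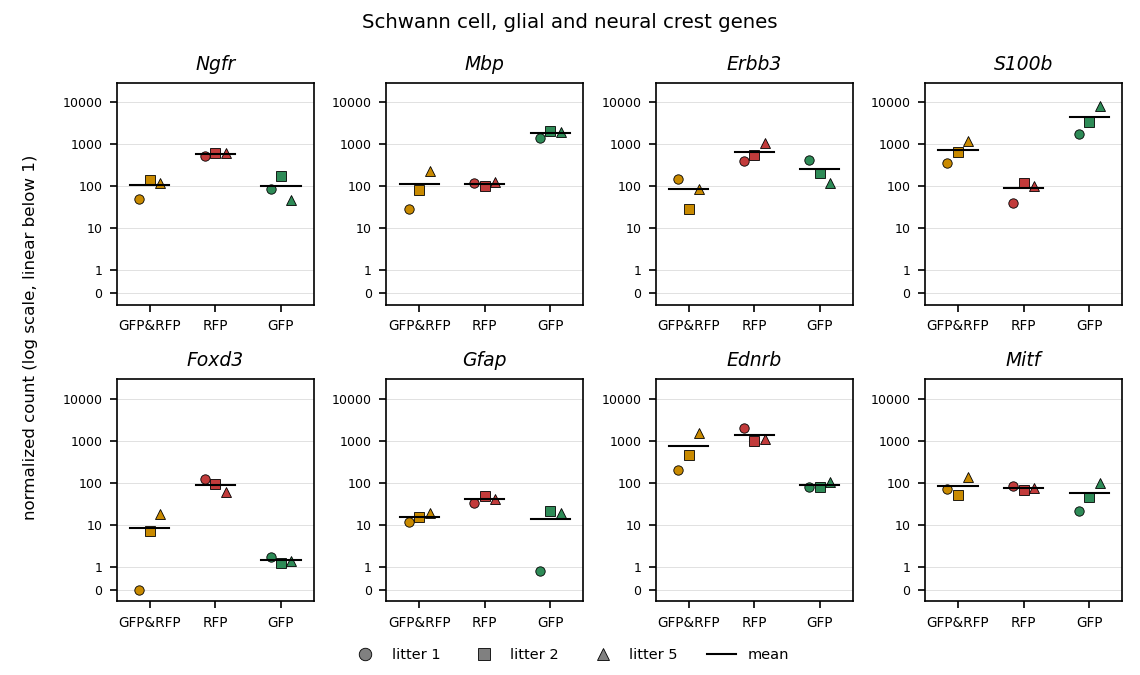
Normalized counts (vertical axis, log scale that is linear below 1) of 8 Schwann cell, glial and neural crest genes in GFP&RFP, RFP and GFP libraries, with 1 marker shape per litter and a line at the mean of 3 libraries. Ngfr and Foxd3 are highest in RFP libraries, whereas the lowest GFP values of Mbp and S100b, 1395 and 1738, exceed every other library.

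Few other markers of Schwann cells were called. Of 12 such genes outside the set, 1 was higher and 2 were lower in RFP than in GFP cells, 2 were lower in GFP&RFP than in GFP cells, and 1 was higher and 1 lower in GFP&RFP than in RFP cells. In these comparisons 20.3%, 8.29% and 2.85% of all tested genes were called. Counts this small say little about the list as a whole. Sox10, the transcription factor of neural crest and glia, had 1045, 782 and 1486 normalized counts in GFP&RFP libraries, 431, 388 and 325 in RFP libraries and 1908, 1972 and 952 in GFP libraries, and was lower in RFP than in GFP cells (-2.01 ± 0.34, adjusted p = 0.0018). The call of Sox10 in RFP against GFP cells held in all 21 alternatives. Cdh19, a cadherin gene of Schwann cell precursors, had 2.88, 15.6 and 0 in GFP&RFP, 93.7, 82.7 and 53.2 in RFP and 558, 507 and 174 in GFP libraries. It was lower in GFP&RFP than in GFP cells (-6.52 ± 0.89, adjusted p = 0.00204) in all 21 alternatives, and lower than in RFP cells (-4.23 ± 0.89, adjusted p = 0.0302). The second of these calls was lost in edgeR, with no trend and without the GFP&RFP library of litter 1 or 5 or any 1 RFP library (adjusted p 0.0745 to 0.121 without 1 library). Sox10 was higher in GFP&RFP than in RFP cells (1.49 ± 0.34, adjusted p = 0.0395), a call lost with litter as a block (adjusted p = 0.0622) and without the same libraries as that of Cdh19 (adjusted p 0.0914 to 0.164). This Sox10 call was also lost with no filter on the mean and with no trend. The 12 markers summed to 22423 to 27036 normalized counts per library in GFP&RFP cells, 15716 to 20243 in RFP cells and 21328 to 28316 in GFP cells. Sox10 and Cdh19 made up a small part of each sum, so the sums do not follow these genes.

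All 4 receptor genes of the GDNF family were higher in RFP than in GFP cells, and in GFP&RFP against GFP cells 2 were higher and 1 was lower. Gfra1 (ENSMUSG00000025089, chr19:58235604-58455909, minus strand, GRCm38), which encodes the co-receptor of GDNF, had 2317, 3289 and 2912 normalized counts in GFP&RFP libraries, 3806, 3897 and 6026 in RFP libraries and 660.5, 616 and 312 in GFP libraries. It was higher than in GFP cells in GFP&RFP (2.48 ± 0.31, adjusted p = 0.0014) and in RFP cells (3.15 ± 0.31, adjusted p = 7.31e-05), and both calls held in all 21 alternatives. Ret, the kinase through which these co-receptors signal, had 135, 192 and 197 in GFP&RFP libraries, 105, 34 and 157 in RFP libraries and 7.44, 23.3 and 27.1 in GFP libraries. It was higher in GFP&RFP than in GFP cells (3.27 ± 0.65, adjusted p = 0.0121), and the call was lost when the GFP&RFP library of litter 2 was left out (adjusted p 0.0543). In RFP cells its rise (2.22 ± 0.65, adjusted p = 0.0335) was lost without the GFP&RFP library of litter 2 or 5, the RFP library of litter 1 or 5 or the GFP library of litter 1 (adjusted p 0.0507 to 0.142). This rise was also lost with no filter on the mean, with quantile scaling and in a fit of RFP and GFP cells alone.

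Gfra2, the co-receptor gene of neurturin, had 58.6, 403 and 259 normalized counts in GFP&RFP, 965, 999.9 and 862 in RFP and 141, 266 and 32.6 in GFP libraries. Gfra2 was higher in RFP than in GFP cells (3.12 ± 0.77, adjusted p = 0.0155), but not without the RFP library of litter 1 or 2 (adjusted p 0.0503 to 0.0513). Gfra3, the co-receptor gene of artemin, which marks nociceptors and Schwann cell precursors, had 82.6, 123 and 85.2 in GFP&RFP libraries, 1264, 931 and 664 in RFP libraries and 181, 271 and 393 in GFP libraries. The populations did not overlap, with RFP cells highest and GFP&RFP cells lowest. Gfra3 was higher in RFP than in GFP cells (1.78 ± 0.38, adjusted p = 0.00682) and lower in GFP&RFP than in RFP cells (-3.26 ± 0.38, adjusted p = 0.000861), and both calls held in all 21 alternatives. It was lower in GFP&RFP than in GFP cells (-1.48 ± 0.38, adjusted p = 0.0345), a call lost with litter as a block (adjusted p = 0.0508) and without any 1 library but the RFP library of litter 5 or the GFP library of litter 1 (adjusted p 0.0527 to 0.107). That call was also lost with no filter on the mean, with no trend and in a fit of GFP&RFP and GFP cells alone. Per kilobase of exon, RFP cells averaged 836 normalized counts of Gfra1, 477 of Gfra3, 266 of Gfra2 and 14.6 of Ret, so Ret was the least abundant of the 4.

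Of 6 other genes of the GDNF family, 4 were tested and Gdnf itself was called. Gdnf had 42.3, 7.02 and 111 normalized counts in GFP&RFP, 177, 135 and 169 in RFP and 12.4, 2.45 and 33.9 in GFP libraries, and was higher in RFP than in GFP cells (3.77 ± 1.00, adjusted p = 0.021). That call was lost without any 1 RFP library or the GFP library of litter 2 (adjusted p 0.054 to 0.0707). Nrtn, Artn and Gfra4 passed in no comparison, and Pspn and Gfral lay under the limit of 10 normalized counts.

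The neurotrophin receptors Ntrk2 and Ntrk3 and the ligand Ntf3 were higher in tdTomato-positive cells than in GFP cells. Ntrk2, the receptor gene of BDNF, had 1461, 2626 and 1794 normalized counts in GFP&RFP libraries, 1307, 1375 and 2352 in RFP libraries and 566, 539.9 and 267 in GFP libraries. It was higher than in GFP cells in GFP&RFP (2.13 ± 0.36, adjusted p = 0.00529) and RFP cells (1.89 ± 0.36, adjusted p = 0.00374), and both calls held in all 21 alternatives. Ntrk3, the receptor gene of neurotrophin-3, had 186, 242 and 169 in GFP&RFP, 325, 523 and 377 in RFP and 14.1, 129 and 12.2 in GFP libraries. Its rise was 3.76 ± 0.73 in RFP cells (adjusted p = 0.00432) and 2.74 ± 0.73 in GFP&RFP cells (adjusted p = 0.0422). The GFP&RFP call was lost in 13 of 21 alternatives, among them without any 1 library but the GFP library of litter 2 (adjusted p 0.0643 to 0.138).

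Ntf3, which encodes neurotrophin-3 itself, had 508, 545 and 216 normalized counts in GFP&RFP libraries, 916, 838 and 709.8 in RFP libraries and 129, 170.2 and 136 in GFP libraries. All libraries of tdTomato-positive cells were above all GFP libraries. The rise in RFP against GFP cells (2.5 ± 0.37, adjusted p = 0.000834) held in all 21 alternatives. That in GFP&RFP cells (1.44 ± 0.37, adjusted p = 0.0354) was lost in 11 of them, among them without the GFP&RFP library of litter 1 or 2, any 1 RFP library or the GFP library of litter 1 or 5 (adjusted p 0.0556 to 0.141). Bdnf, the ligand of Ntrk2, had 236, 132 and 306 in GFP&RFP, 491, 407 and 553 in RFP and 227, 126 and 519.6 in GFP libraries and passed in no comparison (adjusted p 0.19 to 0.818), though it was called higher in RFP than in GFP cells without the GFP library of litter 5 (1.5, adjusted p = 0.0281).

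**Figure D5:**
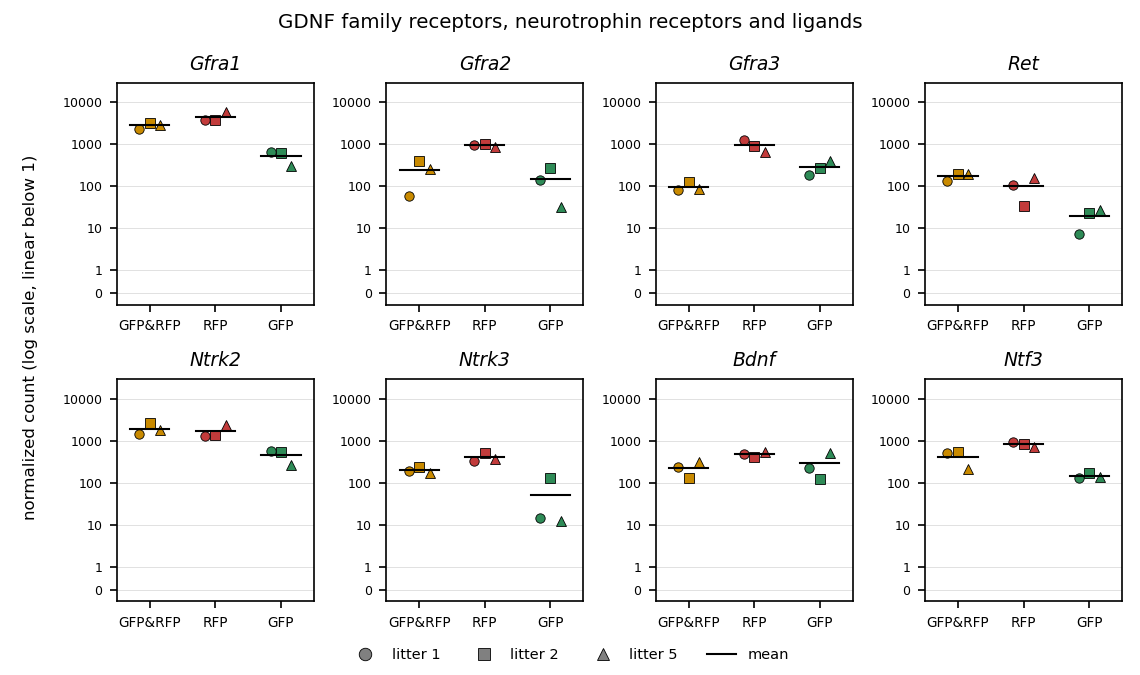
Normalized counts (vertical axis, log scale that is linear below 1) of the 4 GDNF family receptor genes, 2 neurotrophin receptor genes and 2 neurotrophin genes in GFP&RFP, RFP and GFP libraries, with 1 marker shape per litter and a line at the mean of 3 libraries. Gfra1, Ret, Ntrk2, Ntrk3 and Ntf3 are higher in all libraries of both other populations than in GFP libraries, while Gfra3 is highest in RFP and lowest in GFP&RFP libraries.

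Of 7 other genes of neurotrophin signalling, 4 were higher in RFP than in GFP cells. Sorcs2, which encodes a co-receptor of pro-neurotrophins, had 772, 1374 and 984 normalized counts in GFP&RFP, 2645, 3162 and 3343 in RFP and 818, 1183 and 275 in GFP libraries (2.24 ± 0.45, adjusted p = 0.00523 for RFP against GFP cells). This call held in all 21 alternatives. The ligand gene Ntf5 changed by 1.86 ± 0.49 in RFP cells (adjusted p = 0.0203), a call lost without the RFP library of litter 1 or 2 (adjusted p 0.0679 to 0.0857). The Ntf5 call was also lost with no filter on the mean and with quantile scaling.

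Ligands and guidance cues that act on nerve and neural crest cells were also measured. Of 7 neuregulin and ErbB genes, 6 of them tested, Nrg1, the axonal ligand of Schwann cells, was called higher in RFP than in GFP cells at 359.5, 176 and 414 against 38.9, 13.5 and 152 (2.74 ± 0.71, adjusted p = 0.0187, lost without the RFP library of litter 1 or 5 at an adjusted p of 0.0693 to 0.0772). The Nrg1 call was also lost in a fit of RFP and GFP cells alone. Of 6 endothelin and melanocyte ligand genes, 4 were higher and 1 lower in RFP than in GFP cells, led by Kitl, the ligand of the KIT receptor, at 2213, 2018 and 1907 against 417, 395 and 183 (2.71 ± 0.42, adjusted p = 0.00117). Edn3, the ligand of Ednrb, was the lower one, at 1526, 1878 and 1899.8 against 3180.0, 2521 and 2825 (-0.69 ± 0.22, adjusted p = 0.0494), and the call in RFP cells was lost in 14 of 21 alternatives, among them with TMM scaling, with litter as a block (adjusted p = 0.0609) and in 7 fits without 1 library (adjusted p 0.0569 to 0.185). Edn3 was also the gene of this list called in GFP&RFP against GFP cells, lower at 1619, 1151 and 1673 in GFP&RFP libraries (-0.95 ± 0.22, adjusted p = 0.0239), a call lost without the trend, with these populations alone and without the GFP&RFP library of litter 1 or 2 or the GFP library of litter 1 (adjusted p 0.0539 to 0.104 without 1 library). Of 9 tested axon guidance and target-derived factors 6 were higher in RFP and 4 in GFP&RFP than in GFP cells. Ntn1, the guidance cue netrin-1, had 636, 1681 and 1118 in GFP&RFP, 2410.1, 2773 and 2650.2 in RFP and 136, 269 and 55.6 in GFP libraries, with no overlap of either population with GFP cells.

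Pou4f1 and Prrxl1, transcription factor genes that help to define sensory neurons, were low in all populations. The highest library of Pou4f1 had 13.5 normalized counts. Prrxl1 had no read in GFP&RFP libraries, a mean of 9.49 in RFP libraries and no read in GFP libraries. Of the 17 sensory and autonomic neuron markers outside the set, 11 were tested, of which 3 were higher and 1 lower in RFP than in GFP cells and 3 higher in GFP&RFP than in GFP cells. Their summed level was 3348 to 4017 normalized counts per library in GFP&RFP cells, 4956 to 5358 in RFP cells and 2693 to 4289 in GFP cells. Uchl1, a neuronal ubiquitin hydrolase gene, had 1275, 1806 and 1079 in GFP&RFP, 2024, 2036 and 1901 in RFP and 573, 498 and 813 in GFP libraries. Slc17a6, the vesicular glutamate transporter gene of sensory neurons, had 79.7, 159 and 87.5 in GFP&RFP and 5.33, 43 and 51.8 in RFP libraries and no read in GFP libraries. Slc17a6 was called higher than in GFP cells in both populations (adjusted p = 0.00171 in GFP&RFP and 0.00418 in RFP cells), as was Uchl1 (adjusted p = 0.0235 and 0.00116 in the same order), whose call in GFP&RFP cells was lost without the GFP&RFP library of litter 1 or 2 or the GFP library of litter 1 or 2 (adjusted p 0.0522 to 0.104). That Uchl1 call was also lost with no trend and in a fit of GFP&RFP and GFP cells alone. Scn9a was the marker called lower in RFP than in GFP cells, with log2 fold changes of -3.47 to -2.45 in 21 alternatives. Its call was lost without the RFP library of litter 2 (adjusted p = 0.0513). Calca, called higher in GFP&RFP than in GFP cells, lost the call in 12 of 21 alternatives. Chga, called higher in RFP than in GFP cells, lost it in 2 of 20.

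Markers of other cells also differed between the populations. Of 12 skeletal muscle markers 11 were higher in RFP than in GFP cells, 1 was higher in GFP&RFP than in GFP cells and 6 were lower in GFP&RFP than in RFP cells. Their sums were 1025 to 3350.4 normalized counts in GFP&RFP, 8493 to 33211 in RFP and 803 to 2214 in GFP libraries. Endothelial markers were higher than in GFP cells for 2 of 6 genes in GFP&RFP cells and 5 of 6 in RFP cells, and summed to 766 to 3894 in GFP&RFP, 3563 to 4605 in RFP and 339.7 to 891 in GFP libraries. Blood and immune markers were higher for 4 of 6 genes in GFP&RFP and 3 of 6 in RFP cells, and summed to 1076 to 7172 in GFP&RFP, 668 to 2139 in RFP and 31.4 to 160.4 in GFP libraries. Of 7 loose connective tissue markers 2 were higher and 1 lower in GFP&RFP and 6 higher in RFP cells, and their sums were 160527 to 344311 in GFP&RFP, 472065 to 602190.5 in RFP and 68273 to 188092 in GFP libraries. Each marker of these 4 lists had reads in every population. All 6 joint interzone markers were higher in GFP&RFP than in GFP cells, 4 were higher and 1 lower in RFP than in GFP cells, and 3 were higher in GFP&RFP than in RFP cells. One of them, Creb5, carries the tdTomato reporter by which the cells were sorted. The interzone sums were 47768 to 101519.7 in GFP&RFP, 35189 to 40828 in RFP and 5966 to 6428 in GFP libraries. Of 5 tendon markers 4 were higher than in GFP cells in each of the other populations, with sums of 18383 to 27221 in GFP&RFP, 15549 to 20413 in RFP and 5391 to 11439.5 in GFP libraries. Of 7 pericyte and smooth muscle markers 3 were higher in GFP&RFP and 6 higher and 1 lower in RFP than in GFP cells, while their sums overlapped, at 9326 to 18752 in GFP&RFP, 11673 to 16154 in RFP and 14986 to 17905 in GFP libraries. Of 5 epidermis markers 1 was higher in RFP than in GFP cells. Of 7 melanocyte markers 4 were tested, with 1 higher in GFP&RFP and 2 in RFP than in GFP cells. Kit was called in both populations and Dct in RFP cells. The Kit call in RFP cells held in all 21 alternatives. That of Kit in GFP&RFP cells was lost in 7 of 21 and that of Dct in 9 of 21. Mlana had at most 2.45 normalized counts, and Tyrp1 had no read in GFP&RFP or GFP libraries. The 6 genes listed as responding to cell dissociation, among them Fos and Jun, summed to 107342, 60331 and 412797 normalized counts in GFP&RFP, 175011, 149348 and 314554 in RFP and 223193, 90571 and 329508 in GFP libraries. The library of litter 5 had the highest of these sums in each population, and the populations overlapped. The part of these cell types and of dissociation in the values of Ncam1, Nefl, Gfra1, Ntrk2, Ednrb and the other genes of the set was not tested.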

How the data were processed

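The authors' deposited table holds normalized counts per Ensembl gene, a depth-scaled signal. Per the submitters' processing notes FastQC, STAR, Salmon, DESeq2 and mm10 were used, and their roles, settings, annotation and strand are not given in the sources used here. Libraries were made with the Nextera XT kit from polyadenylated RNA, per the labels' protocols. Values were whole multiples of 1 step per library, which gave whole reads for 100% of them (within 0.001 read). Gene names came from GENCODE M21 for 54409 of 54532 IDs, and 23956 genes had no read. No 2 libraries of a population agreed within counting noise (chi-square per degree of freedom at least 46.6).

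Each comparison was tested 2-sided with limma (version 3.58.1, R 4.3.3), on values of log2(normalized count + 1) with the trend option, over the 17764 genes with a mean of at least 10 and all 9 libraries, with Benjamini-Hochberg adjustment over all tested genes. The pseudocount understates the change of low genes. As alternatives, pseudocounts of 0.5 and 5, other filters and scalings, a fit with no trend, fewer libraries and other tools were tried (edgeR 4.0.16 and DESeq2 1.42.0 on recovered reads).

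The labels give the 3 populations of a number as 1 litter, with its own isolation date, so the numbers pair the libraries and litter and date cannot be told apart. Deviations from the population means correlated at a median of 0.103 (-0.0353 to 0.149) in 9 same-litter pairs and -0.0409 (-0.146 to 0.0915) in 18 others. How many embryos made up a litter is not stated in these sources.

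The 36 genes and the gene lists were chosen with earlier results of these data known. All 36 genes are reported, and from each other list up to 3 passing genes with the smallest adjusted p per direction and comparison could be named, beside defining markers. Some genes of the other lists, though counted with them, are not reported here by name.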

Additional observations from a re-analysis of the deposited data

How the results depend on the processing

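Of the 44 calls in the set 27 held in every alternative that could be fitted and 0 reversed. Of 921 refits of these calls 816 kept the call and 105 lost it. In GFP&RFP against GFP cells 1472 genes and 17 of the set were called. The count was 697 genes and 8 of the set with only these 2 populations fitted, 2780 genes with DESeq2, 10 of the set without the trend, and 637 to 1553 genes and 8 to 14 of the set without 1 library (855 and 637 genes without the GFP&RFP library of litter 1 or 2). In RFP against GFP cells the counts were 3601 and 22, and 2190 to 3716 and 19 to 24 without 1 library (2258 and 2190 genes without the RFP library of litter 1 or 5). In GFP&RFP against RFP cells they were 506 and 5, against 1008 genes with these 2 populations, 1152 genes and 9 of the set with DESeq2, 2 of the set without the trend, and 217 to 1050 genes and 2 to 6 of the set without 1 library (217 to 277 genes without any 1 RFP library or the GFP&RFP library of litter 1 or 5, and 1050 without the GFP library of litter 5). With litter as a replicate block the 3 comparisons called 1616, 3673 and 558 genes and 15, 23 and 5 of the set. The block ended the calls of Dcx and Gfra3 in GFP&RFP against GFP cells, added Stmn2 in RFP against GFP cells and changed no other call in the set. The causes were not tested. A limit of a mean of 50 leaves Foxd3 and Gad2 untested. Read numbers limit the genes with 6 or fewer reads in GFP cells.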
